A study of Mus musculus with 3 samples.

Results

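Upper dermal progenitors of mouse back skin at E13.5 were 790 cells of the 5962 in the E13.5 library, which is 13.3% (95% exact binomial interval 12.4 to 14.1%), and of the 16235 cells in the whole series. They were chosen by measured values. A cell had to have 0 UMIs (unique molecular identifiers, which count RNA molecules) for Cdh5, Ptprc, Sox10, Trp63, Elavl3 and Myod1, which mark endothelial, blood, neural crest, epithelial, neuronal and muscle cells. It then had to have a UMI for at least 3 more of the upper genes Crabp1, Nrgn, Calb1, Pth1r, Twist2 and Lix1 than of the deep genes Aspn, Agtr2, Osr1, Smoc2, Igfbp3 and C1qtnf3. In the E13.5 library 3802 cells passed the 6 exclusion genes, and the upper cells were 20.8% of them. The mirrored rule chose 228 deep dermal cells, the main comparison group, and 2784 cells lay between.

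At this stage the dermis is a loose mesenchyme under an epidermis that is about to form hair placodes. The upper layer, next to the epidermis, gives rise to papillary fibroblasts and the dermal condensates of hair follicles, and the lower layer gives rise to reticular dermis and fat precursors. Wnt signals from the epidermis stabilise beta-catenin in the upper dermis, where it acts with Lef and Tcf factors on target genes, many of which encode inhibitors of the pathway itself.

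The study profiled dorsal skin of male C57BL/6 mice at E13.5 and E16.5 (days of gestation) and at birth (P0), with droplet libraries of single cells that read the 3′ ends of transcripts. The skin of several animals was pooled into 1 library per stage. Fetal skin was dissociated with trypsin and newborn skin with collagenase, and no genotype or treatment differed between stages. Stage and library therefore cannot be told apart, nor can dissociation between fetal and newborn skin, and no p-value is given anywhere, since cells of a library are not replicates.

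Levels are given as CPM, the UMIs of a gene summed over the cells of a group and as counts per 1000000 UMIs of that group, with 95% exact Poisson intervals. For differences, 10 CPM were added to each group's level and the log2 of upper over deep was taken. Genes with at least 50 UMIs over both groups and outside the 18 genes of the rule were compared, and a gene was counted as higher or lower past a log2 difference of 1. Intervals cover counting error only. The upper cells held 6820814 UMIs with a median of 7887 per cell, and the deep cells held 1685852 with a median of 6343.5.

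Cells with a UMI of another cell type's marker also held dermal RNA in the E13.5 library. The endothelial reference cells had a UMI of Cdh5 and the epithelial reference cells one of Trp63, and neither had a UMI of another exclusion gene. The 8 pan-dermal markers, among them Col1a1, Col3a1, Pdgfra and Twist1, summed to 6052 CPM in upper cells, 9939 CPM in deep cells, 3911 CPM in 307 endothelial reference cells and 2994 CPM in 131 epithelial reference cells. A UMI of Crabp1 was found in 99.6% of upper cells, in 61.8% of deep cells and in 84.7% of endothelial reference cells, whose median depth was 7987 UMIs. At 3500 UMIs per cell, Egfl7, an endothelial gene, was found in 54.1% of endothelial reference cells and Col1a1 in 78.5%. Whether the dermal UMIs in them were their own, free RNA or those of a second cell was not tested. For this reason some levels are given beside the endothelial reference, and others are given without it. Of the other cell types, the 9 epithelial markers summed to 215 CPM in upper cells and 262 CPM in deep cells, against 3119 CPM in epithelial reference cells. The 7 endothelial markers summed to 69.9 CPM in upper cells and 124 CPM in deep cells, against 1738 CPM in endothelial reference cells. The 7 cartilage and tendon markers were higher in the deep group, at 187 CPM against 41.3 CPM, and so were the 7 pericyte markers, at 246 CPM against 108 CPM. The 7 immune markers summed to 181 and 208 CPM in upper and deep cells and the 7 muscle markers to 127 and 249 CPM. The neural list summed to 187 and 233 CPM, the Schwann and melanocyte list to 31.8 and 40.9 CPM and the adipocyte lineage list to 20.8 and 18.98 CPM. The 6 erythroid markers summed to 10838 CPM in upper cells and 13275 CPM in deep cells, and globin genes held at least 10% of the UMIs in 31 upper cells. The part of these cell types in the differences below was not tested. Between the E13.5 library and the other libraries, 9 upper cells had a barcode that was also used elsewhere.

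The 6 upper genes and the 6 deep genes chose the members, so their levels are a description. Crabp1, which encodes a cytoplasmic retinoic acid binding protein, was the most abundant at 2771 CPM in upper cells, 822 CPM in cells between and 292 CPM in deep cells. Twist2, a transcription factor of dermal fibroblasts, followed at 803 CPM in upper and 121 CPM in deep cells. Nrgn, which encodes neurogranin, a calmodulin-binding protein, was 553 and 11.3 CPM. Pth1r, the parathyroid hormone receptor, was 458 and 45.7 CPM. Lix1 was 368 and 16.02 CPM, and Calb1, which encodes the calcium buffer calbindin, 206 and 3.56 CPM. All 6 upper genes were found together in 374 upper cells and 5 of them in 291. Calb1 was the upper gene that most members lacked, with a UMI in 59.2% of them. Deep genes were not absent from the members: 88 upper cells had none, 266 had 1, 325 had 2 and 111 had 3.

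The deep genes were unequal in this respect. Osr1 had a UMI in 60.6% of upper and 72.8% of deep cells, and Agtr2 in 48.6% and 84.6%, while Aspn was found in 6.58% and 78.9%. In endothelial reference cells these shares were 43.0%, 52.4% and 29.6%. Each of the 12 genes was then left out of the rule, so that the other 11 chose the cells at the same threshold. The rule was chosen with earlier results of these data known and its other genes still sorted the cells. These values are therefore a description. The deep group held from 78 cells without Agtr2 or Smoc2 to 491 without Crabp1. All 6 upper genes stayed past the fold when they had no part in the choice, from a log2 difference of 1.79 for Twist2 to 3.78 for Nrgn. Among the deep genes, Aspn (−2.33), C1qtnf3 (−2.13), Igfbp3 (−1.84) and Smoc2 (−1.54) stayed past it as well. Agtr2, the angiotensin II type 2 receptor, was −0.55 (interval −0.79 to −0.32) and Osr1, an odd-skipped related transcription factor, was 0.17 (interval −0.07 to 0.41). Osr1 was thus at 216 CPM in upper cells and 190 CPM in deep cells that it had not helped to choose.

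Cells were spread without a gap along the difference that the rule used, as the plot of cells by that difference shows. There were 563 cells just outside the threshold, with a difference of 2, and 377 just inside, with a difference of 3. The remaining upper cells were 287 at 4, 112 at 5 and 14 at 6. Crabp1 was 1521 CPM just outside and 2405 CPM just inside the threshold, and 3266 CPM in cells at 5 or 6. Nrgn was 252, 450 and 713 CPM in the same order.

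**Figure D1:**
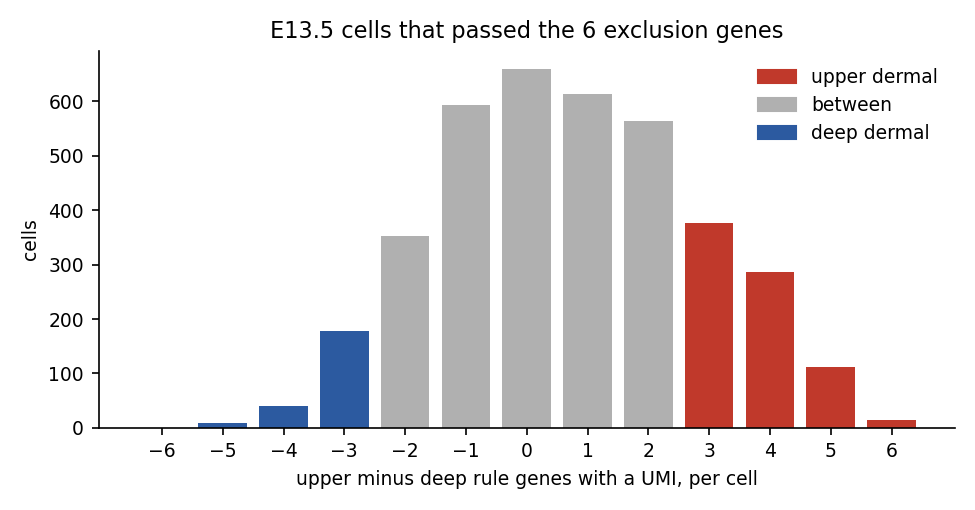
Number of E13.5 cells that passed the 6 exclusion genes (vertical axis) by the number of upper rule genes minus deep rule genes with a UMI (horizontal axis). Bars at 3 and above are the 790 upper cells and bars at −3 and below the 228 deep cells; the distribution is continuous, with 563 cells at 2 and 377 at 3.

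Neighbours in expression space were counted without the 18 rule genes, among the 15 nearest cells in 30 principal components of 2000 variable genes. Of the neighbours of upper cells, 55.8% were upper cells, 43.4% lay between and 0.819% were deep cells, where upper cells were 20.8% and deep cells 6.00% of all cells placed. No deep cell was among the neighbours of 715 of the 790 upper cells. Of the neighbours of deep cells, 16.1% were deep, 79.9% lay between, where cells between were 73.2% of all cells placed, and 4.09% were upper. No deep cell was among the neighbours of 43 of the 228 deep cells. Both groups thus had more neighbours of their own kind, and fewer of the other, than their shares of the cells. Genes that vary with the 18 rule genes were not left out, so this is a description. Cell cycle genes, which also differed between the groups, were not left out either.

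Between upper and deep cells 9736 genes were compared. In upper cells 147 genes were higher past the fold (1.51% of those compared) and 196 were lower (2.01%), and the median of all genes was 0.04. The rule sorted the cells, so genes that vary with its 12 genes had to differ between the groups, and the differences are given as a description. These counts moved with the pseudocount, to 33 and 49 with 50 CPM and 431 and 382 with 1 CPM. Without the cells that held a UMI of any of 10 genes of other cell types, 332 upper cells remained and 271 genes were higher and 161 lower. Cells between had intermediate levels for 143 of the 147 higher genes and 191 of the 196 lower genes. Among the 15 highest were Wnt target genes (Sp5, Nkd1, Notum and Lef1), Iroquois homeobox genes (Irx1, Irx3 and Irx5), the zinc finger factor Casz1 and Runx3. The lowest were Igf1, the secreted Wnt modulator Sfrp2, the growth factor pleiotrophin (Ptn) and matrix genes (Ogn, Postn and Lox).

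All 15 of the highest genes were above the endothelial reference in upper cells and at or below it in deep cells. Nrp1 is among them, a gene that endothelium itself expresses. The mirrored count for the 15 lowest genes was 15 of 15 in upper cells at or below the reference, with 14 of 15 above it in deep cells; the exception was Rgcc, a regulator of the cell cycle. Over all genes past the fold, 140 of the 147 higher genes were above the endothelial reference in upper cells, and 114 were at or below it in deep cells. The genes were picked for the difference between upper and deep cells, which favours a reference level between them. The same counts were not made over all genes compared, so they are a description. Of the 15 highest, Lef1 was not above the epithelial reference in upper cells, at 111 CPM against 114 CPM.

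**Figure D2:**
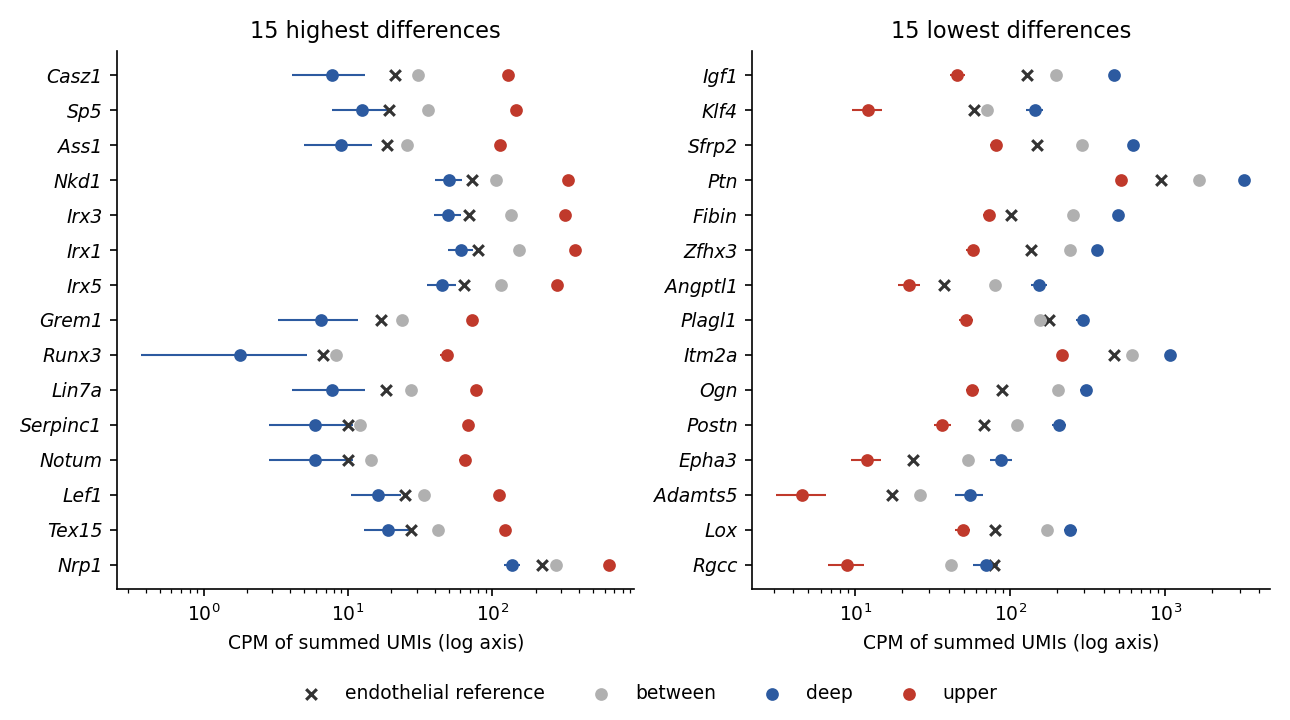
CPM of summed UMIs (log axis) of the 15 genes with the highest and the 15 with the lowest log2 difference, upper over deep, in upper, between, deep and endothelial reference cells of the E13.5 library; lines are 95% Poisson intervals for upper and deep cells. Cells between sit between upper and deep cells for these genes, and the deep level of the 15 highest is at or below the endothelial reference.

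Wnt targets and feedback genes were the pathway list with most genes past the fold in the upward direction. Of the 17 listed genes compared, 8 were higher and 2 lower in upper cells, with a median of 0.88 against 0.04 over all genes. Of all genes compared 1.51% were higher and 2.01% lower. Sp5 (chromosome 2, 70474923 to 70477729, mm10), which encodes a transcription factor induced by beta-catenin, was at 145 CPM (136 to 155) in upper cells, 35.8 CPM in cells between, 12.5 CPM (7.71 to 19.04) in deep cells and 19.2 CPM in the endothelial reference. The log2 difference of Sp5 was 2.79 (2.44 to 3.14). It is the list's largest.

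Feedback inhibitors made up most of the genes that were higher. Nkd1, an intracellular antagonist that binds Dishevelled, was at 332 CPM in upper cells, 106 CPM in cells between and 49.8 CPM in deep cells, a log2 difference of 2.51 (2.25 to 2.78). Notum, a secreted enzyme that removes the lipid of Wnt proteins, stood at 64.5, 14.3 and 5.93 CPM in the same groups (log2 2.23). The other extracellular inhibitors were Dkk1, which blocks the Lrp co-receptors (70.1 against 9.49 CPM), and Wif1, which binds Wnt proteins (82.5 against 17.2 CPM). Axin2, a scaffold of the beta-catenin destruction complex, was 97.6 against 31.4 CPM.

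The DNA-binding partners of beta-catenin went both ways. Lef1 was at 111 CPM in upper and 16.02 CPM in deep cells, a log2 difference of 2.21 (1.87 to 2.56). Tcf7 had 221 UMIs in upper cells and 4 in deep cells, a ratio of CPM of 13.7 (5.26 to 50.6). Tcf7l2 was lower in upper cells, at 29.2 against 100 CPM. Dkk2, a relative of Dkk1, was lower too, at 38.6 against 147 CPM. Beta-catenin itself (Ctnnb1) was 258 and 233 CPM, short of the fold.

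The genes of the list were found together in members. After every cell had been thinned to 3500 UMIs, 38.6% of upper cells (35.2 to 42.1%) had UMIs of at least 3 of the 8 higher genes. This share was 6.86% of cells between, 0.877% of deep cells, 4.56% of endothelial and 6.87% of epithelial reference cells. None of the 8 was found in 12.5% of upper cells and in 61.0% of deep cells, at this depth. These 8 genes were picked for their difference, so the shares only describe how it was spread over the cells.

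The promoters of the higher genes of this list are shown because Lef1 and Tcf7, which bind DNA beside beta-catenin, were themselves among the genes that differed. RefSeq starts in build GRCm38.p6 matched 7 of the 8 genes, not Notum, with 11 promoters of 250 bases before to 50 bases after the start. The letters CTTTGA, the core of the Lef and Tcf motif, were searched on both strands (TCAAAG on the other). They were in 3 of the 11 promoters, 1 each of Sp5, Dkk1 and Lef1 (27.3%), and in 16.003% of all 32851 promoters of this length. Matches are in capitals in the 2 promoters below, 2 in each, and a match is a description of the sequence only.
Sp5 promoter, chr2:70474673-70474972, plus strand: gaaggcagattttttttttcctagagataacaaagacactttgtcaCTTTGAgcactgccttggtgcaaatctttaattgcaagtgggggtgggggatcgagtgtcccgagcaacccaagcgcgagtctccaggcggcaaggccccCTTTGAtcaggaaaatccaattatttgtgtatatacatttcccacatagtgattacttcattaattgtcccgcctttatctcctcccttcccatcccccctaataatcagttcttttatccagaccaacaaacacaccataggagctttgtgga
Dkk1 promoter, chr19:30549447-30549746, minus strand: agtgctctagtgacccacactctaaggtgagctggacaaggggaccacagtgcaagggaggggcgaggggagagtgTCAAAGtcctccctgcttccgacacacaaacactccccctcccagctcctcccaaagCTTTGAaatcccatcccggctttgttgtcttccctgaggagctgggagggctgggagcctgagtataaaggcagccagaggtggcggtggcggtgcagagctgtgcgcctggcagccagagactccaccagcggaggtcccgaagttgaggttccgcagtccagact

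Ligands, receptors and secreted modulators of Wnt did not move as a group. Of 22 genes compared, 1 was higher and 3 were lower (1.51% and 2.01% of all genes compared), with a median of 0.04. Rspo1, a secreted protein that strengthens Wnt signals, was higher, at 152 against 49.8 CPM. Sfrp2 and Sfrp1, secreted proteins that bind Wnt, were lower, Sfrp2 at 80.5 CPM in upper cells, 290 CPM in cells between and 619 CPM in deep cells, and Sfrp1 at 66.9 against 309 CPM. The ligand gene Wnt2 was lower, at 5.42 against 34.997 CPM. Wnt5a, the most abundant ligand gene of the list in upper cells, was 163 and 135 CPM.

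The Iroquois genes encode homeodomain factors and lie in clusters, Irx3 and Irx5 on chromosome 8 (from 91798525 and 92357625, mm10) and Irx1 on chromosome 13 (from 71957921). As a family they were singled out after their values had been seen. Irx1 was at 374 CPM (360 to 389) in upper cells, 154 CPM in cells between and 60.5 CPM (49.3 to 73.4) in deep cells. Irx3 was at 318, 134 and 49.2 CPM and Irx5 at 280, 115 and 44.5 CPM in the same order. Irx2 was at 139, 63.3 and 27.9 CPM. Their log2 differences thus lay between 1.97 and 2.47. Irx6 was at 11.4 CPM (9.04 to 14.3) in upper cells, with 78 UMIs, and had 1 UMI in deep cells, a ratio of CPM of 19.3 (3.36 to 771) and a log2 difference of 1.02. It was at 5.17 CPM in the endothelial and 51.2 CPM in the epithelial reference. At 3500 UMIs per cell, 39.6% of upper cells, 2.63% of deep cells and 6.84% of endothelial reference cells had UMIs of at least 3 of Irx1, Irx2, Irx3 and Irx5. Epithelial reference cells also held these genes, with 12.98% at 3 or more and Irx5 at 152 CPM.

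The other genes among the 15 highest did not share a list with each other, and Nrp1 was in the guidance list and Grem1 in the Bmp list. With 10 CPM added to each level, Casz1 had the largest log2 difference of all genes compared, 2.96 (2.61 to 3.32). It was at 128 CPM (120 to 137) in upper cells, 30.5 CPM in cells between and 7.71 CPM (4.11 to 13.2) in deep cells. Ass1, the enzyme argininosuccinate synthase, was at 112, 25.4 and 8.90 CPM. Nrp1, a co-receptor of semaphorins and Vegf, was the most abundant of the 15, at 642, 277 and 137 CPM. Runx3, a Runt family factor, had 329 UMIs in upper cells and 3 in deep cells, a ratio of CPM of 27.1 (9.19 to 132). Grem1, a secreted Bmp antagonist, was at 72.6 against 6.52 CPM, Lin7a, a scaffold protein of cell junctions, at 77.4 against 7.71 CPM, and Serpinc1, which encodes antithrombin, at 68.3 against 5.93 CPM. Tex15, known from meiosis in male germ cells, was at 122 against 18.98 CPM.

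**Figure D3:**
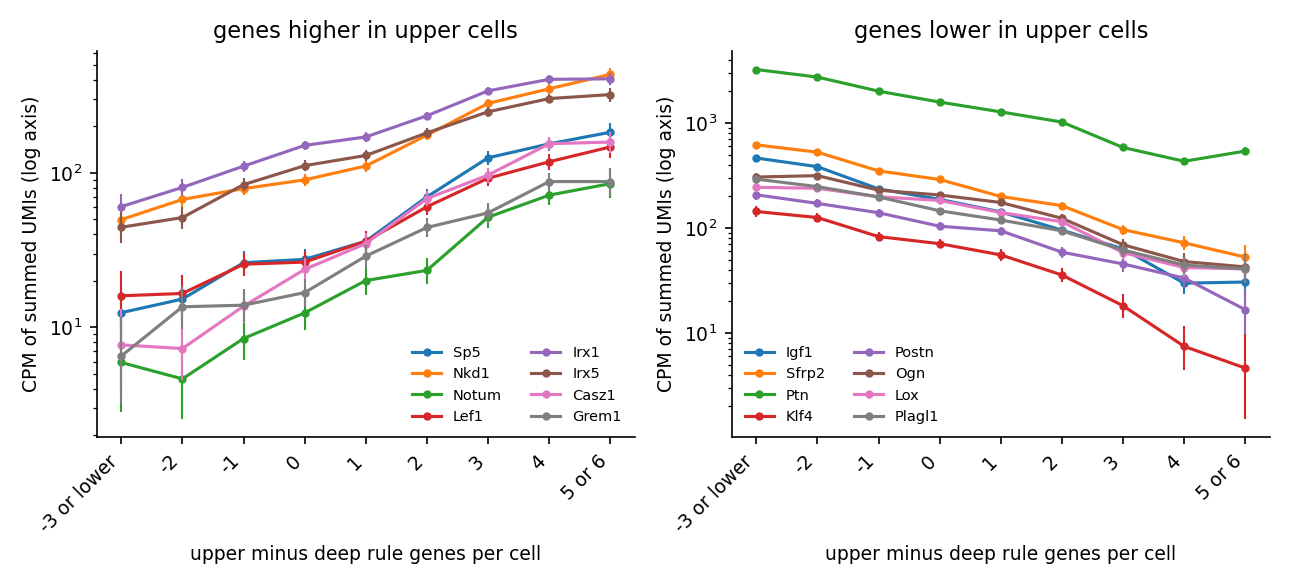
CPM of summed UMIs (log axis, with 95% Poisson intervals) of 16 of the genes with the largest differences in cells grouped by upper minus deep rule genes (horizontal axis). The 8 genes on the left, such as Sp5, rise from deep to upper cells and the 8 on the right, such as Igf1, fall, with no step at the threshold of 3.

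Levels along the rule's own difference are given as a description, since these genes were picked as the most different between its ends. Sp5 was 70.0 CPM just outside the threshold, 125 CPM just inside and 183 CPM at 5 or 6. Casz1 was 68.2, 96.8 and 158 CPM, and Irx1 234, 340 and 407 CPM. Igf1 was 95.4 CPM just outside, 63.3 CPM just inside and 30.6 CPM at 5 or 6.

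Genes of the Igf system were mostly lower in upper cells. Of 9 genes compared, 0 were higher and 6 were lower (1.51% and 2.01% of all genes compared), with a median of −1.16. Igf1 (chromosome 10, 87858265 to 87937042, mm10) encodes a growth factor made by mesenchyme. With 10 CPM added to each level, Igf1 had the lowest log2 difference of all genes compared. It was at 45.6 CPM (40.7 to 51.0) in upper cells, 196 CPM in cells between, 464 CPM (432 to 498) in deep cells and 129 CPM in the endothelial reference, a log2 difference of −3.09 (−3.26 to −2.93). Its relative Igf2 was 762 against 1825 CPM, and the clearance receptor Igf2r 39.1 against 99.7 CPM. The binding proteins Igfbp4, Igfbp6 and Igfbp7 were lower as well, Igfbp4 at 293 against 774 CPM.

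Imprinted growth genes were lower in 5 of 14 genes compared and higher in none, with a median of −0.94. Of all genes compared 2.01% were lower and 1.51% higher. The cell cycle inhibitor Cdkn1c was at 1045 CPM in upper, 2481 CPM in cells between and 3452 CPM in deep cells, a log2 difference of −1.71 (−1.76 to −1.66). The zinc finger factor Plagl1 was 51.9 against 292 CPM and the noncoding RNA H19 627 against 1686 CPM. The others that were lower, Igf2 and Igf2r, are also in the Igf list, so the lists share them. Peg3 went the other way, short of the fold, at 1360 against 760 CPM. The noncoding RNA Meg3, the most abundant gene of the list, was 3709 and 6718 CPM, also short of the fold.

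Other signalling lists had genes past the fold in both directions or in neither, where 1.51% of all genes compared were higher and 2.01% lower. Of 23 Bmp genes, Grem1 was higher and Gdf10, Fstl1 and Id2 were lower. Of 14 Fgf genes, the receptor Fgfr2 was higher (22.7 against 5.93 CPM), and the ligands Fgf7 and Fgf18 were lower. Of 14 Tgf-beta and Pdgf genes, Tgfb1 was higher (34.6 against 9.49 CPM, with 103 CPM in the endothelial reference), while Tgfb2, Tgfb3 and the target Tgfbi were lower. Tgfb2 was 33.7 against 167 CPM. No gene of the 7 Hedgehog and 8 Notch genes compared passed the fold in either direction, and the Hedgehog median was 0.02.

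The ectodysplasin pathway takes part in the formation of hair placodes. Of the 5 genes listed with it 2 were compared, Edaradd and Tnfrsf19, and both were higher, where 1.51% of all genes compared were higher. Eda, Edar and Eda2r had too few UMIs to be compared, so the ligand and its receptors were not covered. Edaradd, the adaptor of the receptor Edar, had 172 UMIs in upper cells and 3 in deep cells, a ratio of CPM of 14.2 (4.77 to 69.4). Tnfrsf19 was 77.0 CPM in upper, 38.6 CPM in cells between and 20.2 CPM in deep cells, with 74.0 CPM in epithelial reference cells.

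Fibroblast lists of later skin lined up with the groups in part. Of 11 genes known from papillary or upper fibroblasts, 5 were higher and none lower, with a median of 0.99. The lowest of the 11 was just short of the fold at −0.99. Over all genes compared, 1.51% were higher and 2.01% lower. The list shares Lef1, Axin2 and Rspo1 with the Wnt lists. The others were Col7a1, the collagen of anchoring fibrils, with 186 UMIs in upper and 3 in deep cells, and the integrin subunit Itga8 (35.04 against 12.5 CPM). Of 9 reticular or hypodermal genes, none was higher and 5 were lower, with a median of −1.19. These were Mfap5, Mgp, Gpc3, Dpt and Ly6e, and Gpc3, a glypican, was 265 against 900 CPM. Dlk1, the most abundant of them, was 1396 CPM in upper and 2766 CPM in deep cells, just short of the fold at −0.98.

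Of 15 dermal condensate genes 7 had enough UMIs to be compared. Cpne5 was higher (25.1 against 3.56 CPM) and Trps1 lower (9.68 against 30.8 CPM), and the other 5 did not pass the fold. Over all 790 upper cells, Sox2 had 10 UMIs and Sox18 had 11, the factors that define condensates. Bmp4, the most abundant gene of the list, was 74.9 CPM in upper and 62.3 CPM in deep cells, with a UMI in 33.4% of upper cells.

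Among 33 transcription factors of dermis and mesoderm, 3 were higher and 10 lower (1.51% and 2.01% of all genes compared), with a median of −0.27. Those higher were Twist1 (275 against 125 CPM), a relative of Twist2, Zeb2 (270 against 67.6 CPM) and Tcf4 (734 against 301 CPM). Those lower included Klf4, at 12.02 CPM in upper, 70.5 CPM in cells between and 144 CPM in deep cells, and the orphan nuclear receptor Nr2f1 (5.86 against 56.9 CPM). Ebf1, Ebf2, Ebf3, Nfia, Nfib, Meox2, Osr2 and the tendon factor Scx were also lower. En1, which marks the dermis of the back, was 83.0 against 36.8 CPM, at a log2 difference of 0.99.

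Hox genes, which pattern the body axis, differed both by cluster and by number within it. Of 23 compared, 3 were higher and none lower, where 1.51% of all genes compared were higher and 2.01% lower. Hoxc10 was at 69.8 CPM in upper cells, 44.1 CPM in cells between and 9.49 CPM in deep cells, a log2 difference of 2.03 (1.67 to 2.40). Hoxc9 (86.5 against 34.4 CPM) and Hoxd8 (24.3 against 6.52 CPM) were the others. Hoxd8 was at 25.6 CPM in the endothelial reference, above its level in upper cells. The 3 lowest were Hoxb4 (−0.92), Hoxa2 (−0.83) and Hoxb3 (−0.77). Grouped by number, after the values had been seen, all 6 genes compared of paralog groups 9 and 10 were above 0 with a median of 0.82. These were Hoxa9, Hoxb9, Hoxc9, Hoxd9, Hoxa10 and Hoxc10, and no gene of a higher number was compared. Hoxd9 was at 11.3 CPM in upper cells, below its 52.3 CPM in the endothelial reference. In groups 5 to 8, 5 of 10 were above 0 with a median of 0.14, and in groups 1 to 4, 1 of 7 with a median of −0.37, the one being Hoxc4. Grouped by cluster, all 6 Hoxc genes were above 0, from 0.35 for Hoxc4 to 2.03 for Hoxc10. Of 8 Hoxb genes, 7 were below 0 and Hoxb9 was above it. The Hoxa and Hoxd clusters had 3 of 5 and 2 of 4 genes above 0. Which part of the back each cell came from is not recorded.

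Matrix genes were the other large set that was lower. Over all genes compared, 1.51% were higher and 2.01% lower. Of 22 collagens, 8 were lower and 1 higher, with a median of −0.72; the one higher was Col7a1. Col1a1, a chain of the main fibrillar collagen, was 1177 against 2439 CPM, and Col12a1 49.4 against 187 CPM. Of 35 proteoglycans and glycoproteins, 12 were lower and 1 higher, with a median of −0.74. Postn, which encodes periostin, was at 36.4 CPM in upper, 110 CPM in cells between and 207 CPM in deep cells, and the proteoglycan Ogn at 57.0, 203 and 305 CPM. Fibulin 1 (Fbln1) was the gene that was higher, at 530 against 216 CPM. Lox, which crosslinks collagen and elastin, was 49.4 against 244 CPM, and the aggrecanase Adamts5 4.54 against 54.6 CPM.

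Guidance and adhesion genes had members past the fold in both directions, more of them lower. Over all genes compared more were lower too, with 1.51% higher and 2.01% lower. Of 27 guidance genes, Nrp1 and Robo2, the receptor of Slit proteins, were higher (Robo2 at 122 against 38.0 CPM). Nrp2, the other neuropilin, was lower, at 12.5 against 61.1 CPM, as were Sema3c, Epha3, Epha4 and the ligand gene Kitl. Of 23 adhesion genes, Thy1 (78.4 against 14.8 CPM) and Itga8 were higher. The 8 that were lower were Cdh2, Cdh3, Cdh4, Pcdh7, Pcdh9, Pcdh19, Itgb5 and the surface sialomucin Cd34. Cd34 was 23.6 against 70.0 CPM, with 145 CPM in the endothelial reference.

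**Figure D4:**
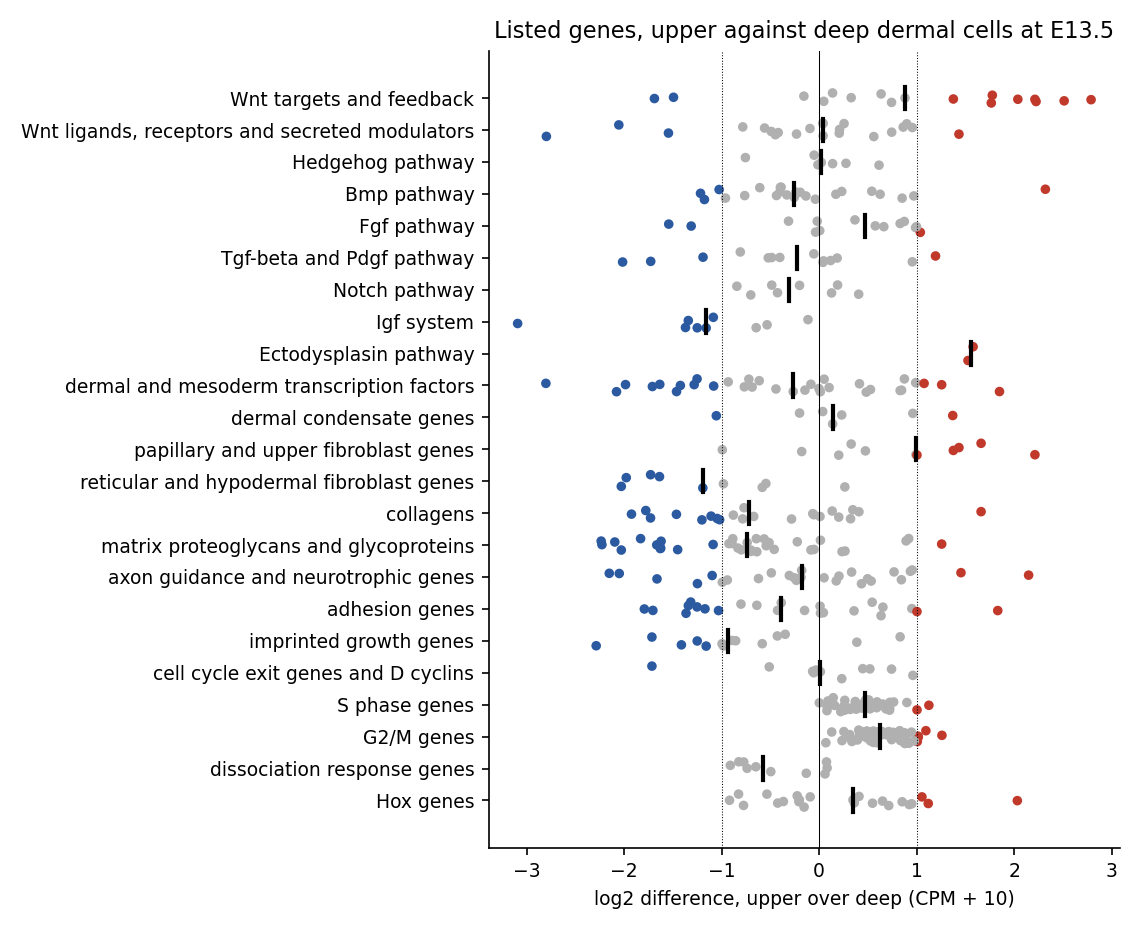
Log2 difference, upper over deep, of each gene compared in 23 lists (points; red past 1, blue past −1) with the median of each list (black bar). Wnt targets, papillary genes and both cell cycle lists have medians above 0.4, and Igf, reticular, collagen and matrix lists have medians below −0.7.

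Cell cycle genes were higher in upper cells as a small shift over whole lists. All 43 S phase genes and all 54 G2/M genes were above 0, with medians of 0.47 and 0.62. The median of all genes compared was 0.04, so more of them were above 0 than below it. Of them 2 and 5 passed the fold, where 1.51% of all genes compared were higher. Hmgb2, a chromatin protein and the most abundant of them, was 1137 CPM in upper, 838 CPM in cells between and 616 CPM in deep cells, with 948 CPM in the endothelial reference. The median share of UMIs in these 97 genes was 1.01% per upper cell, 0.814% per cell between and 0.597% per deep cell. Of upper cells 60.9% were above the median share of the cells that passed the exclusion genes, of deep cells 32.0% and of endothelial reference cells 59.6%. In cells at or below that median, the count of genes past the fold was 149 higher and 182 lower. Among cell cycle exit genes and D cyclins, Cdkn1c was the single gene of 11 past the fold. The 10 dissociation response genes compared had a median of −0.57 and none passed the fold.

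A few genes past the fold rested on few cells. Of the 147 higher genes, 5 had at least 50% of their UMIs in 1 upper cell. These were Stfa1, S100a9, BC100530, Camp and S100a8, genes known from neutrophils, and they were picked out after their values had been seen. Of the 211 UMIs of BC100530, 182 were in 1 cell, and of the 183 of Stfa1, 165. Ccl21a, a chemokine of lymphatic endothelium, had 15.6% of its UMIs in 1 cell. The globins were the genes whose counts varied most among members.

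The same rule chose 838 upper and 95 deep cells at E16.5 and 268 upper and 114 deep cells at P0. The groups were not the same in make-up, since Calb1 had 11 UMIs in the upper cells at E16.5. At E16.5, 220 genes were higher (2.29%) and 350 lower (3.64%) in upper cells. At P0, 559 were higher (10.6%) and 273 lower (5.18%), on a median of all genes of 0.27. These counts moved when every cell was thinned to 3500 UMIs before the rule, which also changed the cells chosen and the genes compared. At E16.5 the thinned groups were 1140 upper and 131 deep cells, with 7712 genes compared against 9622 before. Of these 353 were higher and 309 lower, which turns the order of the counts. At P0 they were 261 and 103 cells, with 3306 genes compared against 5274, and 443 were higher and 161 lower. Of the genes that were higher at E13.5, 55 of 123 that could be compared were higher past the fold at E16.5 and 47 of 83 at P0. Of those lower at E13.5, 110 of 146 were lower past the fold at E16.5 and 56 of 99 at P0.

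Some genes of the E13.5 upper cells were at lower levels in upper cells of later stages. In order of stage Sp5 was 145, 39.8 and 0.62 CPM. Casz1 was 128, 11.6 and 2.48 CPM, Lin7a 77.4, 3.77 and 3.72 CPM, and Irx3 318, 46.8 and 4.96 CPM. Nrp1 was 642 CPM at E13.5 with a log2 difference over deep cells of 2.15, 232 CPM and −0.14 at E16.5, and 44.1 CPM and −0.80 at P0. Irx5 had log2 differences of 2.41, 0.45 and −0.51. Irx1 kept more of its difference, at 2.45, 1.82 and 0.84, and its level in upper cells was 374, 432 and 239 CPM.

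Other genes were past the fold in each library. Nkd1 had log2 differences of 2.51, 2.26 and 2.83 and levels of 332, 322 and 331 CPM in upper cells. Lef1 had 2.21, 2.81 and 1.80, and Wif1 1.77, 3.20 and 1.86 with levels of 82.5, 434 and 491 CPM. Of the genes lower at E13.5, Sfrp2 had −2.80, −3.43 and −2.07, and Postn −2.23, −4.96 and −4.48. All 15 of the lowest genes at E13.5 were also lower past the fold at E16.5, and 8 of the 14 highest that could be compared were higher. At P0, 10 of 13 of the lowest and 3 of 6 of the highest were past the fold in the same direction, and the other 9 of the highest had too few UMIs. The later groups were chosen by the same rule genes, so this recurrence is a description too.

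**Figure D5:**
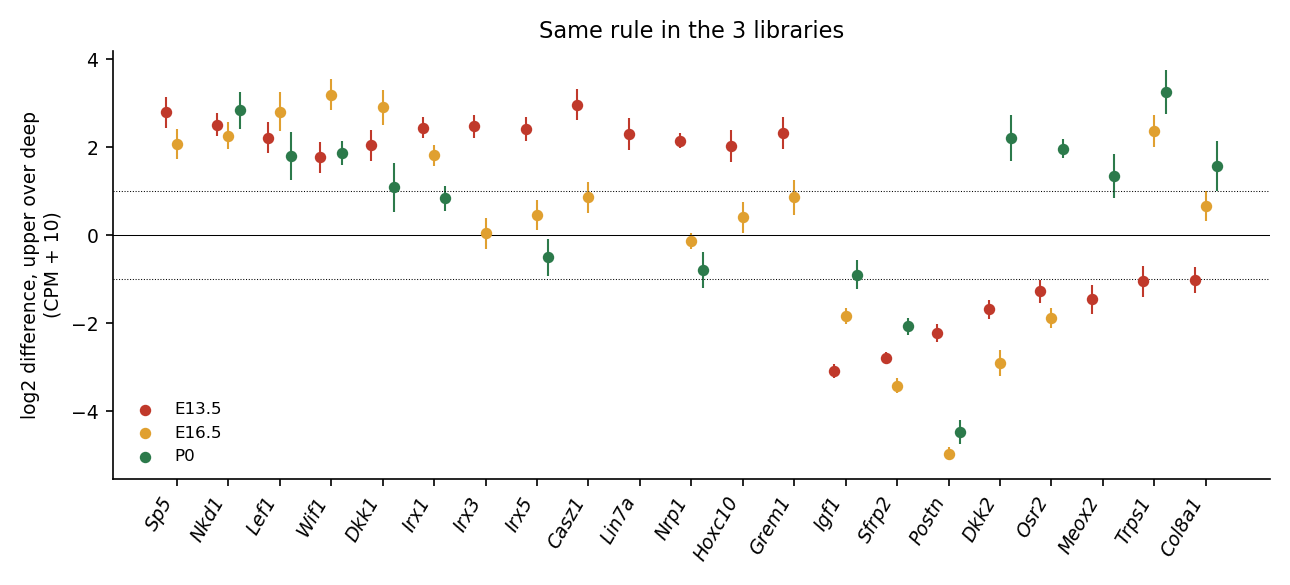
Log2 difference, upper over deep, of 21 genes in the libraries of E13.5, E16.5 and P0 (vertical axis; lines are 95% counting intervals; dotted lines at 1 and −1). A gene without a point in a library had under 50 UMIs there. Nkd1 and Lef1 are above 1 in each library, Nrp1 is above 1 at E13.5 only, and Trps1 is below −1 at E13.5 and above 1 later.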

How the data were processed

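Back skin of pooled male mice was measured in 3 libraries, 1 per stage. Per the labels and methods the authors aligned reads to mm10 and counted UMIs with Cell Ranger 2.2.0, filtered the table in Seurat (a minimum of 3 cells per gene and of 1750 genes per cell). The deposited values are natural logs (ln) of UMIs scaled to 10000 per cell, after 1 was added. The scale was found from the values: all 48197283 values above 0 came out as whole UMIs within a relative tolerance of 0.001. The table holds 16235 cells, against 15086 in the study's design text. No doublet removal is named, no caller was run here, and cells above the 95th percentile of UMIs were left out in an alternative.

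Cells were chosen by the rule in the text, UMIs were summed per group, and log2 differences used 10 CPM as pseudocount, with normal intervals of the log ratio from Poisson variances. Genes named are the 12 rule genes, the 15 highest and 15 lowest log2 differences, the 3 highest and 3 lowest Hox genes, and for each list those past the fold and the 2 most abundant, with exceptions named as such. The result of 1 list is not reported here. The members, lists and tests were chosen with earlier results of these data known. Reference cells had a UMI of Cdh5 alone (endothelial) or Trp63 alone (epithelial) among the 6 exclusion genes. Positions are from GENCODE vM21 and promoters from RefSeq. Scripts ran in Python 3.11.15 with numpy 2.4.6, scipy 1.17.1, pandas 2.3.3, scanpy 1.11.5 and scikit-learn 1.9.0, and the comparison was tested on simulated data. Each library held 1 sample, so no test between samples could be run.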

Additional observations from a re-analysis of the deposited data

Results flagged for a closer look

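Genes past the fold in opposite directions in different libraries were looked for among the named genes, by the same rule for upper and deep cells. Over all genes lower at E13.5, 4 of 146 compared (2.74%) were higher past the fold at E16.5 and 11 of 99 (11.1%) at P0. Of all genes compared, 2.29% and 10.6% were higher there, so these shares were near those of all genes. Of genes higher at E13.5, 2 of 123 (1.63%) were lower at E16.5 and 3 of 83 (3.61%) at P0. Of all genes, 3.64% and 5.18% were lower there. Trps1, a zinc finger factor known from dermal condensates, had a log2 difference of −1.05 at E13.5, just past the fold. In the E16.5 and P0 libraries Trps1 had 2.37 and 3.25. Its level in upper cells was 9.68, 221 and 248 CPM. Dkk2, a Wnt modulator, had −1.69 and −2.91 before birth and 2.21 at P0. The odd-skipped related factor Osr2 had −1.28 and −1.88 before birth and 1.97 at P0. Meox2, a homeobox factor, had −1.46 (interval −1.80 to −1.12) at E13.5 and 1.35 (interval 0.85 to 1.85) at P0. At E13.5 Meox2 was 4.40 CPM in upper and 29.7 CPM in deep cells, against 32.5 CPM in the endothelial reference. Its deep level was thus not above that reference. Col8a1, a short-chain collagen, had −1.02 at E13.5 and 1.57 at P0. At E13.5 it was 23.6 CPM in upper, 76.2 CPM in cells between and 58.1 CPM in deep cells, and its difference turned to 0.047 when Aspn was left out of the rule. At P0 the median of all genes was 0.27, so these values are that much nearer to 0 relative to it. None of these differences between stages was tested, since each stage was 1 library. Stage and library cannot be told apart, nor can dissociation in the comparisons with P0.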

How the results depend on the processing

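The 30 genes with the highest and lowest differences kept their direction in every alternative that could compare them, and stayed past the fold except for 2 with 50 CPM as pseudocount. Of 125 named genes past the fold, 2 changed sign under an alternative: Tpx2, a spindle gene, was −0.44 among cells with a low share of cycle genes, and Col8a1 was 0.047 when Aspn was left out of the rule. More of them lost the fold: 76 with 50 CPM as pseudocount, 51 with all other cells as reference, 37 at a threshold of 2, 23 of 118 after thinning, and 2 to 25 when a gene was left out of the rule. The causes were not tested, other than fewer cells or genes by construction. The number of members depended on the threshold, with 1353 upper cells (22.7% of the library) at 2 and 413 (6.93%) at 4. Genes past the fold were 86 higher and 128 lower at a threshold of 2, and 359 higher at 4. They were 431 and 382 with 1 CPM as pseudocount, 33 and 49 with 50 CPM, and 57 and 104 with all other cells as reference. With a minimum of 200 UMIs 91 genes were lower. Thinning to 3500 UMIs before the rule left 15.5% of cells as upper, and 641 of the 790 members were among the 927 chosen. With at least 2500 genes per cell 518 cells (15.5% of those kept) were upper, among cells with a low share of cycle genes 309 (10.8%), and without cells with a UMI of 10 genes of other types 332 (20.6%), where 271 genes were higher. Leaving an upper gene out of the rule gave 416 cells (6.98%) without Crabp1, 478 (8.02%) without Nrgn, 10.4% without Calb1, 462 (7.75%) without Pth1r, 426 (7.15%) without Twist2 and 470 (7.88%) without Lix1. Leaving out a deep gene gave 15.1% without Aspn or C1qtnf3, 18.6% without Agtr2 with 221 genes higher, 18.1% without Osr1, 17.2% without Smoc2 and 15.6% without Igfbp3. Without cells in which globins held at least 1% of UMIs, an alternative chosen after seeing the data, 14.3% of cells were upper and 175 genes were higher and 206 lower. With 1 library per stage no leave-one-out was possible. No paired analysis was possible because each stage was 1 library.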
